A study of Homo sapiens with 74 samples.

Results

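HEK293T cells carrying m6A-Tracer were compared with cells labelled untreated, by RNA sequencing of whole cell populations. The members were chosen by label: the 2 RNA libraries whose transfection label is m6A-Tracer and the 2 whose label is untreated, 4 of the 74 samples of the series and 4 of its 8 RNA libraries, with every gene of the count table. The other RNA libraries, 2 from cells given DamV133A and 2 from cells given DamV133A-LMNB1, served as further transfected groups and contributed to the shared estimate of spread. The remaining samples map contacts of the genome with the nuclear lamina in single cells and in bulk, and were not used.

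HEK293T is a human embryonic kidney line that expresses the SV40 large T antigen, a viral protein that binds p53 and the retinoblastoma protein. m6A-Tracer is a fluorescent fusion protein that binds GATC sites in DNA once their adenine is methylated. Dam, the bacterial enzyme that methylates those sites, is not named in the label of the m6A-Tracer cells. DamV133A is a Dam variant with a substitution, and DamV133A-LMNB1 joins it to lamin B1, a filament protein of the nuclear lamina. All 4 groups share 1 treatment text, which describes transient transfection by FuGene HD of Dam-LMNB1 together with m6A-Tracer and induction with 1 mM Shield-1 for 20 hours, in cells below passage 10. Shield-1 stabilises proteins fused to a destabilising form of FKBP12. Whether the m6A-Tracer and the untreated RNA cells received reagent or ligand is not stated separately, so the construct, the transfection and the ligand cannot be told apart in this comparison. Transient transfection reaches only some of the cells, and in bulk RNA fewer cells of a kind and less RNA per cell cannot be told apart. Separate cultures are not named for the replicates, and p-values then measure only the spread between these libraries, which may be technical.

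Pathways that respond to foreign DNA and to changed growth conditions have well-known transcript sets. p53 activates genes of cell cycle arrest, DNA repair and apoptosis. HIF, stabilised when oxygen is scarce, activates glucose transporters, glycolytic enzymes and regulators of mitochondrial removal. Cytosolic DNA is sensed by cGAS and STING, which lead to interferon and its target genes.

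The 8 RNA libraries held 39690886 to 51455298 estimated counts each, and the 4 compared here 39690886 to 44997284. Levels are TMM-scaled CPM, one value per library, and are relative to an effective size of each library. The TMM factors were 1.017 in both m6A-Tracer and 0.971 in both untreated libraries. Scaled totals therefore differ between libraries, which enters the summed levels below. ± is the standard error of a log2 fold change in the edgeR quasi-likelihood fit with 2 libraries in each group. Replicates lay close together in 3 groups: the median absolute log2 difference over genes was 0.0651 in m6A-Tracer, 0.0646 in DamV133A and 0.0633 in untreated cells, but 0.187 in DamV133A-LMNB1 cells. That group widens the shared spread. The m6A-Tracer libraries detected more genes (23567 and 23624) than the untreated libraries (22988 and 22697), and their 10 most abundant genes held 3.37% and 3.35% of counts, against 3.93% and 3.99% in untreated cells. The part of this difference in the results was not tested.

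Genes linked to the constructs checked the labels. FKBP1A, which encodes FKBP12, had 291 and 285 CPM in the m6A-Tracer libraries, 853 and 844 CPM in DamV133A, 626 and 584 CPM in DamV133A-LMNB1 and 359 and 356 CPM in untreated libraries. LMNB1, which encodes lamin B1, had 251 and 257 CPM in m6A-Tracer, 249.6 and 253 CPM in DamV133A, 2548 and 2056 CPM in DamV133A-LMNB1 and 767 and 768 CPM in untreated libraries. For both genes the untreated libraries lay between those of m6A-Tracer and of DamV133A-LMNB1. LMNB1 was lower in m6A-Tracer than in untreated cells (log2 fold change -1.59 ± 0.09, edgeR adjusted p = 0.000191), while its difference from DamV133A was 0.01 on the log2 scale (edgeR adjusted p = 0.982). FKBP1A was lower than in untreated cells by less (log2 fold change -0.31 ± 0.05, edgeR adjusted p = 0.00735). No label names lamin B1 or FKBP12 for the untreated cells. Whether the libraries labelled untreated hold some RNA of DamV133A-LMNB1 cells was not tested, and every comparison with untreated cells below carries that limit. The m6A-Tracer transgene is no human gene and was not analysed here.

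HEK293T markers were present in all 4 libraries: VIM (vimentin) had 603 and 595 CPM in m6A-Tracer libraries, against 815 and 789 CPM in untreated libraries, and NEFM (a neurofilament subunit) had 153 and 154 CPM in m6A-Tracer libraries, against 249 and 237 CPM in untreated libraries. KRT18, a keratin of simple epithelia, had 59.5 and 60.3 CPM in m6A-Tracer libraries, against 66.3 and 64.6 CPM in untreated libraries. Of 22 markers of blood, endothelium, fibroblasts, squamous epithelium, hepatocytes and muscle, 13 passed the filter on low counts, and COL1A1 was the only one above 3 CPM, with 25.4 and 27.1 CPM in m6A-Tracer libraries, against 29.8 and 29.5 CPM in untreated libraries. PTPRC, the CD45 of blood cells, had 0.223 and 0.165 CPM in m6A-Tracer libraries, against 0.275 and 0.539 CPM in untreated libraries, and the keratins KRT5 and KRT14 and the factor TP63 did not pass the filter. PDGFRB, a receptor of fibroblasts and pericytes, was higher at a low level (1.81 and 1.88 CPM in m6A-Tracer and 0.412 and 0.196 CPM in untreated libraries, log2 fold change 2.58 ± 0.33, edgeR adjusted p = 0.00342). The marker LHX1 occurs under 2 identifiers that moved in opposite directions, so its level is uncertain.

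Against untreated cells, 1352 genes were higher and 829 lower in m6A-Tracer cells, of 17740 tested (edgeR quasi-likelihood test, Benjamini-Hochberg adjusted p under 0.05). That is 7.62% of genes higher and 4.67% lower, or 12.3% in either direction. In each of these genes both m6A-Tracer libraries lay beyond both untreated libraries. A call nearly requires this, and the share over all genes was not counted. Where it is said of single called genes below, it adds no support to their calls. Most changes were small: the median was 1.39-fold among higher genes and 1.28-fold lower among lower genes, and the median log2 fold change of all genes was 0.01. Changes of at least 1 on the log2 scale were counted in 238 higher and 26 lower genes. Under library totals alone, without TMM scaling, 80.0% of calls were higher, against 62.0% with it, and the median of all genes was 0.08. Leaving out either m6A-Tracer library or either untreated library left 249 to 309 genes higher and 56 to 65 lower, and leaving out both DamV133A-LMNB1 libraries raised the counts to 3370 higher and 3564 lower.

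**Figure D1:**
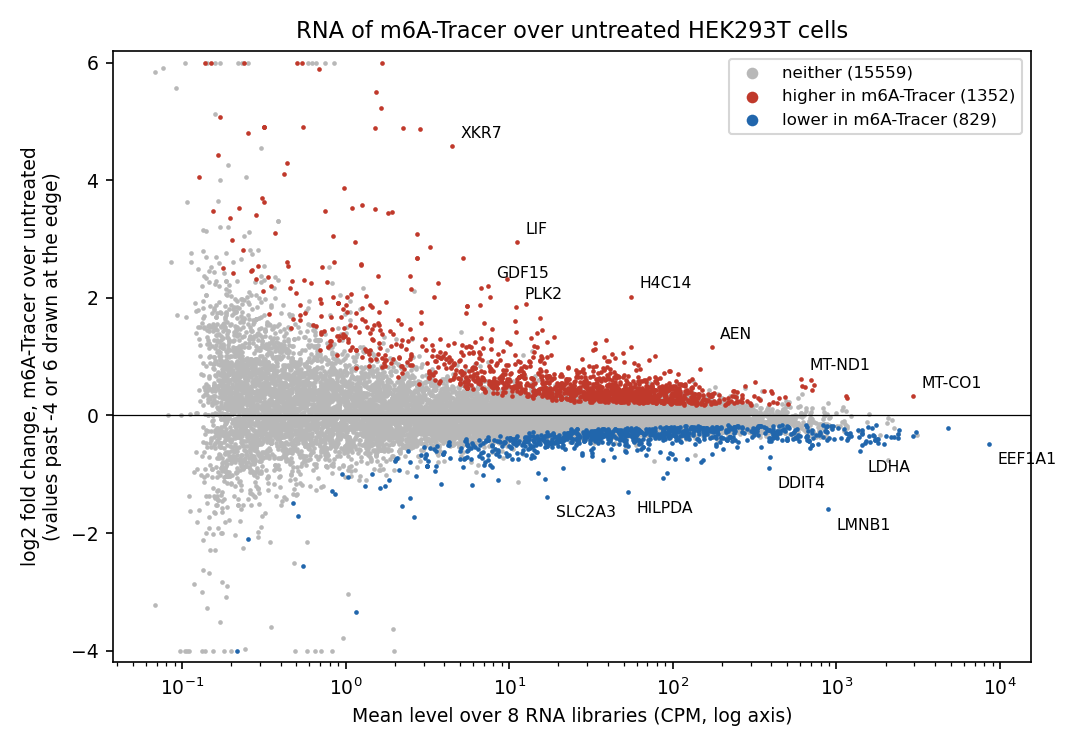
Each point is a gene tested in RNA of HEK293T cells, with its mean level over 8 RNA libraries in CPM (log axis) against the log2 fold change of m6A-Tracer over untreated cells; red points were higher and blue points lower at adjusted p under 0.05. The 1352 higher genes reach larger changes than the 829 lower ones.

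The smallest p-values among higher genes belonged to LIF and H4C14. LIF, a cytokine of the interleukin-6 family, had 15.6 and 14.3 CPM in m6A-Tracer libraries, against 2.04 and 1.84 CPM in untreated libraries (log2 fold change 2.94 ± 0.11, edgeR adjusted p = 4.14e-05). The 2 groups were far apart, and both DamV133A libraries (16.7 and 17.4 CPM) lay above the m6A-Tracer ones. H4C14, a histone H4 gene, had 56.1 and 53.4 CPM in m6A-Tracer libraries, against 14.2 and 12.8 CPM in untreated libraries (log2 fold change 2.02 ± 0.08, edgeR adjusted p = 4.14e-05); its near-identical copy H4C15 makes the gene of origin uncertain. XKR7, of the XK-related membrane protein family, had 6.72 and 5.88 CPM in m6A-Tracer libraries, against 0.160 and 0.368 CPM in untreated libraries (log2 fold change 4.58 ± 0.27). PLXNB3, a semaphorin receptor, had 3.50 and 3.11 CPM in m6A-Tracer libraries, against 0.275 and 0.319 CPM in untreated libraries (log2 fold change 3.47 ± 0.21). These were genes near silence in untreated cells, with every m6A-Tracer library above 3 CPM. NECTIN4, a cell adhesion protein, likewise had 3.20 and 3.48 CPM in m6A-Tracer libraries, against 0.366 and 0.417 CPM in untreated libraries (log2 fold change 3.09 ± 0.19).

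Further strongly raised genes came from unrelated families. TYW1B, a relative of the tRNA-modifying enzyme TYW1, had 8.18 and 8.02 CPM in m6A-Tracer libraries, against 1.88 and 1.74 CPM in untreated libraries (log2 fold change 2.16 ± 0.11). OVGP1, a secreted oviductal glycoprotein, had 11.3 and 11.6 CPM in m6A-Tracer libraries, against 1.99 and 2.62 CPM in untreated libraries (log2 fold change 2.31 ± 0.14). CELF3, an RNA-binding regulator of splicing, had 7.78 and 6.19 CPM in m6A-Tracer libraries, against 0.916 and 1.28 CPM in untreated libraries (log2 fold change 2.67 ± 0.19). No library of one group reached the other in these 3 genes. DNAH17, an axonemal dynein heavy chain, had 8.18 and 8.90 CPM in m6A-Tracer libraries, against 1.69 and 2.55 CPM in untreated libraries (log2 fold change 2.01 ± 0.17). DHRS2, a short-chain dehydrogenase, had 13.9 and 16.0 CPM in m6A-Tracer libraries, against 4.21 and 3.85 CPM in untreated libraries (log2 fold change 1.89 ± 0.11). AP3B2, a subunit of the neuronal AP-3 coat, had 20.3 and 21.6 CPM in m6A-Tracer libraries, against 8.56 and 9.10 CPM in untreated libraries (log2 fold change 1.25 ± 0.08). Of these 3 genes AP3B2 had the closest replicates.

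**Figure D2:**
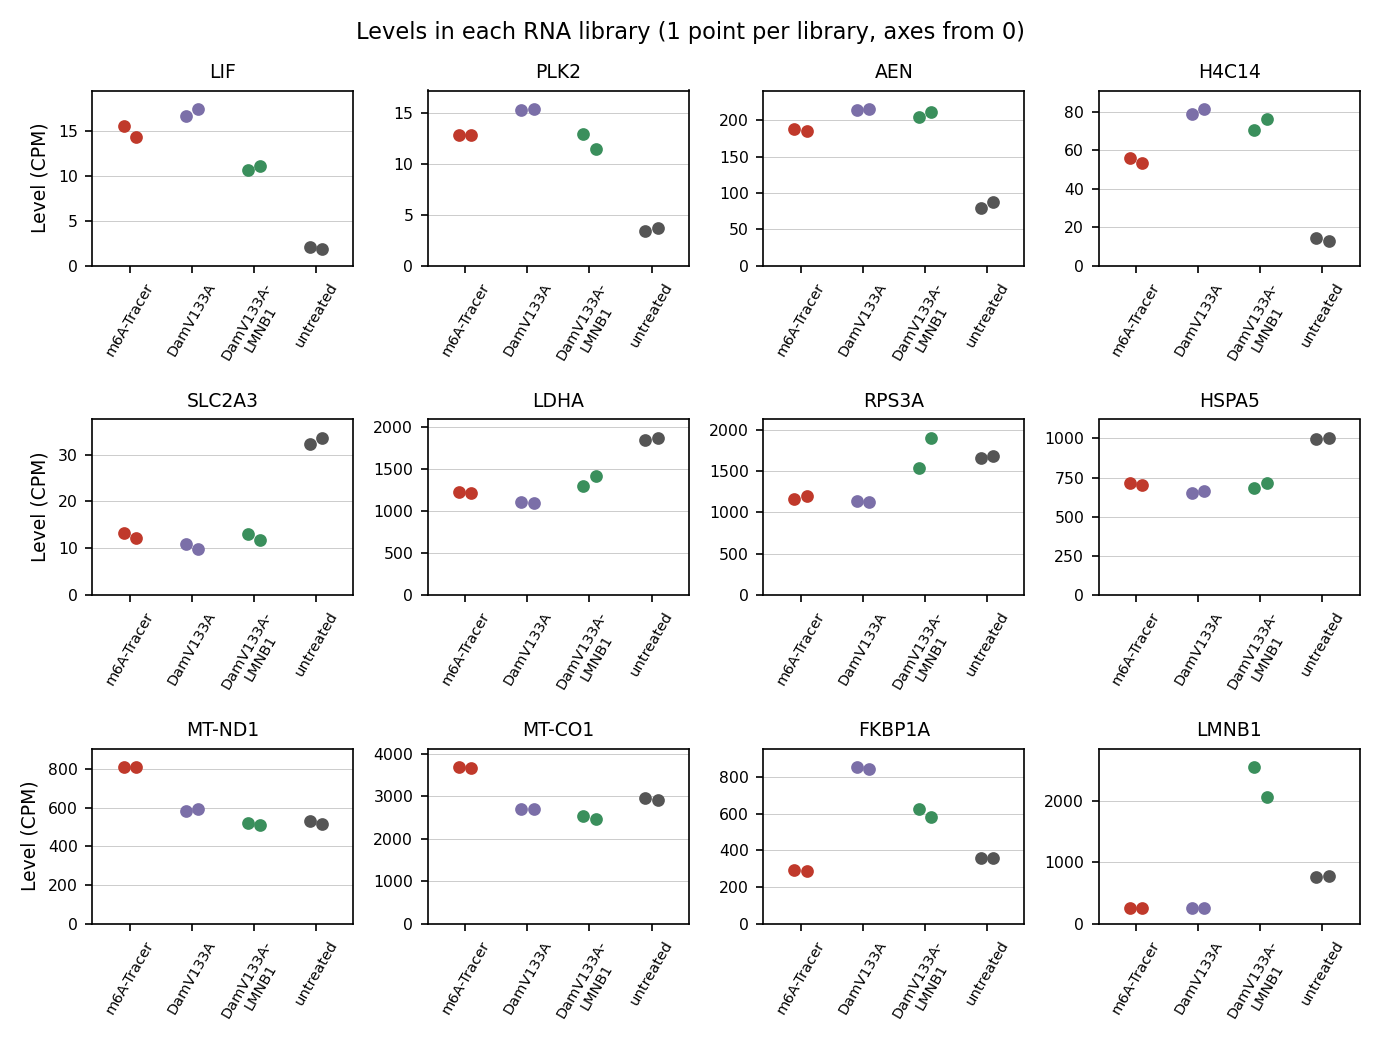
Levels in CPM of 12 genes in each of the 8 RNA libraries, 1 point per library, in the order m6A-Tracer, DamV133A, DamV133A-LMNB1 and untreated, with axes from 0. LIF, PLK2, AEN and H4C14 lay higher in m6A-Tracer than in untreated libraries, SLC2A3, LDHA, RPS3A, HSPA5, FKBP1A and LMNB1 lay lower, and MT-ND1 and MT-CO1 were highest in m6A-Tracer of all 4 groups.

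Of the p53 targets, 21 of 30 tested rose and 1 fell, with a median log2 fold change of 0.48, against 0.01 over all genes; 31 genes were listed. Among the 10 genes of cell cycle arrest 8 rose, and among 20 tested genes of apoptosis and repair 13 rose. PLK3, a stress-activated polo-like kinase, had 12.4 and 13.0 CPM in m6A-Tracer libraries, against 4.95 and 4.56 CPM in untreated libraries (log2 fold change 1.42 ± 0.11, edgeR adjusted p = 0.000501). PLK2, its relative, had 12.8 and 12.8 CPM in m6A-Tracer libraries, against 3.41 and 3.73 CPM in untreated libraries (log2 fold change 1.84 ± 0.10, edgeR adjusted p = 0.000191). Both kinases were more than doubled in every m6A-Tracer library. The negative regulator PPM1D, a phosphatase that acts on p53, had 69.1 and 65.4 CPM in m6A-Tracer libraries, against 36.5 and 37.4 CPM in untreated libraries (log2 fold change 0.87 ± 0.06, edgeR adjusted p = 0.000422). MDM2, the ubiquitin ligase of p53, had 138 and 139 CPM in m6A-Tracer libraries, against 103 and 97.2 CPM in untreated libraries (log2 fold change 0.47 ± 0.05). CDKN1A, the p21 inhibitor of cyclin-dependent kinases, had 50.1 and 50.9 CPM in m6A-Tracer libraries, against 41.3 and 41.2 CPM in untreated libraries, a smaller difference (log2 fold change 0.29 ± 0.06).

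Repair and apoptosis targets of p53 rose likewise. AEN, an apoptosis-enhancing nuclease, had 188 and 185 CPM in m6A-Tracer libraries, against 79.4 and 86.9 CPM in untreated libraries (log2 fold change 1.17 ± 0.06, edgeR adjusted p = 0.000160). DDB2, which recognises ultraviolet damage, had 53.6 and 54.0 CPM in m6A-Tracer libraries, against 27.3 and 24.0 CPM in untreated libraries (log2 fold change 1.07 ± 0.10, edgeR adjusted p = 0.000980). The groups did not overlap in either gene. PHLDA3, an inhibitor of AKT, had 38.1 and 37.6 CPM in m6A-Tracer libraries, against 21.5 and 21.8 CPM in untreated libraries (log2 fold change 0.81 ± 0.09). The death receptor FAS had 8.48 and 8.87 CPM in m6A-Tracer libraries, against 6.46 and 5.86 CPM in untreated libraries (log2 fold change 0.49 ± 0.10), and the ribonucleotide reductase subunit RRM2B had 60.3 and 62.3 CPM in m6A-Tracer libraries, against 41.7 and 43.2 CPM in untreated libraries (log2 fold change 0.53 ± 0.07). Changes of the other risers ranged between those of XPC (0.21), a damage sensor, and TP53I3 (0.80), a quinone oxidoreductase. CCNG1, cyclin G1, was the listed target that fell, with 208 and 214 CPM in m6A-Tracer libraries, against 242 and 243 CPM in untreated libraries (log2 fold change -0.20 ± 0.05, edgeR adjusted p = 0.0379). Without the first m6A-Tracer library 8 of the targets rose, without the second 10, and without either untreated library 9; without both DamV133A-LMNB1 libraries 25 rose and 4 fell.

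**Figure D3:**
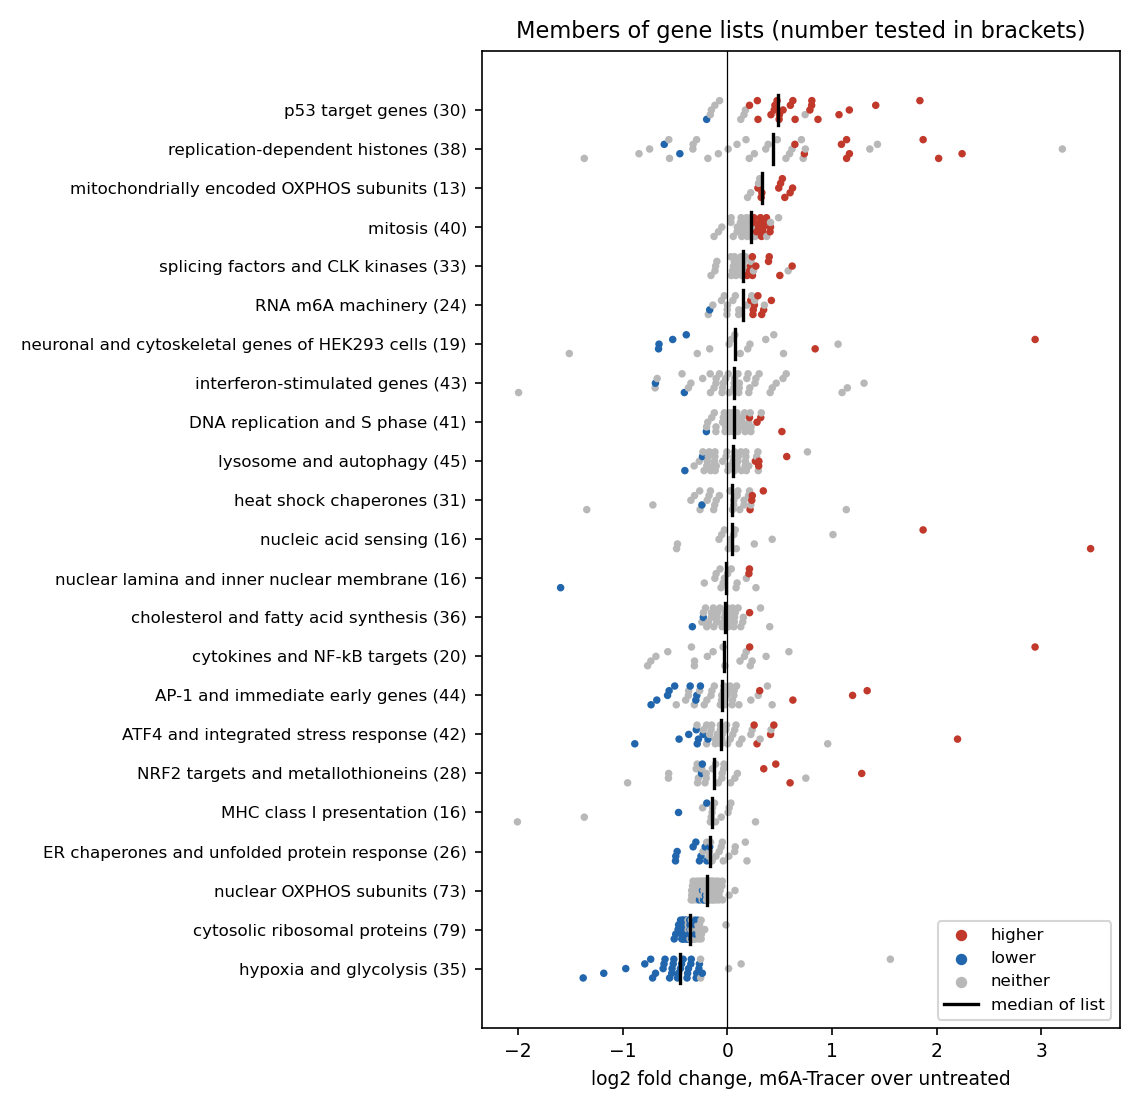
Each point is a tested member of a gene list, placed by its log2 fold change of m6A-Tracer over untreated; red points were higher, blue points lower and grey points neither at adjusted p under 0.05, and black bars mark list medians. Medians run between 0.48 for p53 targets and -0.45 for hypoxia and glycolysis.

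Most genes of hypoxia and glycolysis fell: 30 of 35 tested were lower and none higher, with a median of -0.45. Of the hypoxia genes 14 of 18 fell, and of the glycolytic genes 16 of 17. The HIF response element has the core ACGTG. The promoters below are 4 examples from the 12 genes that fell and hold it, not the 4 with the largest falls. Each is the 250 bases before the gene's start in RefSeq's GRCh38.p14, printed in the direction of the gene. Capitals mark ACGTG or its reverse complement CACGT, and CACGTG holds both overlapped. LDHA lies at chr11:18394313-18394562 on the plus strand, PGK1 at chrX:78103998-78104247 on the plus strand, BNIP3 at chr10:131981924-131982173 on the minus strand and ANKRD37 at chr4:185396591-185396840 on the plus strand.
LDHA: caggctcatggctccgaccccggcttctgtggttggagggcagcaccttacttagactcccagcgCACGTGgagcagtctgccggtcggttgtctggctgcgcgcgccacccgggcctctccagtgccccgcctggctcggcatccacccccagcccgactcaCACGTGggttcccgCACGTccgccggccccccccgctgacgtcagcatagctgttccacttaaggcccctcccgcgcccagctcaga
PGK1: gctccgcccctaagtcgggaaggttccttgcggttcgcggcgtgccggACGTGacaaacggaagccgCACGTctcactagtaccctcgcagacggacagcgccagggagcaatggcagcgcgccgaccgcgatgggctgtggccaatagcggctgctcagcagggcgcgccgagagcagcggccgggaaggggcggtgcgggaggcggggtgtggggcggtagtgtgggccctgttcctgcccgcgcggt
BNIP3: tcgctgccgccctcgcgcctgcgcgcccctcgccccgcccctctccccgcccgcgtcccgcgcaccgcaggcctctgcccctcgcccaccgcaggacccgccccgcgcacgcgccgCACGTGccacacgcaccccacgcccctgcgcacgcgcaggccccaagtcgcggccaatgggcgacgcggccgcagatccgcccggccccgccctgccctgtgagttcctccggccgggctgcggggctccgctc
ANKRD37: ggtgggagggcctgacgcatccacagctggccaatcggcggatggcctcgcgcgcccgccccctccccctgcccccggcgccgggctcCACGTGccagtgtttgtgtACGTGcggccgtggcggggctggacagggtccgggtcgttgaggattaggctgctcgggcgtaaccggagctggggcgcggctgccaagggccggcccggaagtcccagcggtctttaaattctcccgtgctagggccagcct

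Of the 30 members that fell, 26 had a promoter window and 12 of those held the core. Over the whole list it was found in 41.9% of windows, against 27.0% of windows of lower genes, 22.5% of genes tested and 18.7% of all 27305 promoters. Over the other lists the share ran from 0% in MHC class I presentation to 40% in nucleic acid sensing, which has 10 windows. It was 38.2% in lysosome and autophagy genes, of which 2 of 45 tested were lower. In mitotic genes, none of which were lower, it was 31.4%. A match describes these letters and is no evidence of binding.

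Glucose transporters and HIF targets were among the genes that fell. SLC2A3, the glucose transporter GLUT3, had 13.2 and 12.2 CPM in m6A-Tracer libraries, against 32.3 and 33.5 CPM in untreated libraries (log2 fold change -1.38 ± 0.09, edgeR adjusted p = 0.000276). SLC2A1, the transporter GLUT1, had 106 and 103 CPM in m6A-Tracer libraries, against 143 and 143 CPM in untreated libraries (log2 fold change -0.45 ± 0.05). Both untreated libraries lay above both m6A-Tracer libraries in each gene. ANKRD37, a HIF-induced ankyrin repeat protein, had 3.84 and 4.87 CPM in m6A-Tracer libraries, against 9.80 and 10.0 CPM in untreated libraries (log2 fold change -1.18 ± 0.19). BNIP3, which directs removal of mitochondria, had 104 and 106 CPM in m6A-Tracer libraries, against 176 and 173 CPM in untreated libraries (log2 fold change -0.73 ± 0.07), and its relative BNIP3L had 61.3 and 63.2 CPM in m6A-Tracer libraries, against 86.4 and 93.4 CPM in untreated libraries (log2 fold change -0.53 ± 0.06). NDRG1, a growth-linked gene induced by hypoxia, had 133 and 127 CPM in m6A-Tracer libraries, against 221 and 229 CPM in untreated libraries (log2 fold change -0.79 ± 0.05, edgeR adjusted p = 0.000276). P4HA1, a collagen prolyl hydroxylase, and EGLN1 and EGLN3, the oxygen sensors that mark HIF for destruction, changed by -0.72, -0.38 and -0.52 on the log2 scale. VEGFA, the vascular growth factor, changed least of the named hypoxia genes, with 82.4 and 84.6 CPM in m6A-Tracer libraries, against 105 and 99.7 CPM in untreated libraries (log2 fold change -0.29 ± 0.05).

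Within glycolysis, genes early and late in the pathway fell. ALDOC, an aldolase, had 10.6 and 11.9 CPM in m6A-Tracer libraries, against 22.0 and 22.2 CPM in untreated libraries (log2 fold change -0.97 ± 0.09). LDHA, which reduces pyruvate to lactate, had 1226 and 1218 CPM in m6A-Tracer libraries, against 1852 and 1869 CPM in untreated libraries (log2 fold change -0.61 ± 0.05, edgeR adjusted p = 0.000577). GAPDH had 1791 and 1766 CPM in m6A-Tracer libraries, against 2495 and 2458 CPM in untreated libraries (log2 fold change -0.48 ± 0.05). The replicates differed by far less than the groups in each. PGK1, phosphoglycerate kinase, had 616 and 607 CPM in m6A-Tracer libraries, against 899 and 895 CPM in untreated libraries (log2 fold change -0.55 ± 0.06), and PFKFB4, a regulator of phosphofructokinase, changed by -0.69. HK1, a hexokinase, had the smallest change of those that fell (-0.24). PDK1, the kinase that holds pyruvate from the mitochondria, had 78.7 and 74.1 CPM in m6A-Tracer libraries, against 114 and 120.3 CPM in untreated libraries (log2 fold change -0.62 ± 0.08). Summed over the list, levels were 14642 and 14416 CPM in m6A-Tracer and 19431 and 19311 CPM in untreated libraries. Leaving out 1 m6A-Tracer or untreated library left 14 to 16 genes lower, and leaving out both DamV133A-LMNB1 libraries gave 32 lower and 2 higher.

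Other lower genes with small p-values included HILPDA, BHLHE40 and DDIT4. HILPDA, a lipid droplet protein, had 37.2 and 36.9 CPM in m6A-Tracer libraries, against 91.5 and 91.0 CPM in untreated libraries (log2 fold change -1.30 ± 0.07, edgeR adjusted p = 0.000191). BHLHE40, a transcriptional repressor, had 76.9 and 74.0 CPM in m6A-Tracer libraries, against 148 and 148 CPM in untreated libraries (log2 fold change -0.98 ± 0.05, edgeR adjusted p = 0.000191). DDIT4, an inhibitor of mTORC1 signalling, had 304 and 312 CPM in m6A-Tracer libraries, against 573 and 565 CPM in untreated libraries (log2 fold change -0.89 ± 0.06, edgeR adjusted p = 0.000276). The groups did not overlap in any of the 3. CXCR4, a chemokine receptor, had 17.0 and 18.2 CPM in m6A-Tracer libraries, against 33.1 and 32.6 CPM in untreated libraries (log2 fold change -0.90 ± 0.07). NRN1, the neurite growth factor neuritin, had 88.8 and 88.7 CPM in m6A-Tracer libraries, against 149 and 148 CPM in untreated libraries (log2 fold change -0.74 ± 0.06). NOG, the BMP antagonist noggin, had 5.26 and 7.01 CPM in m6A-Tracer libraries, against 13.1 and 13.2 CPM in untreated libraries (log2 fold change -1.10 ± 0.14), and its 2 m6A-Tracer values lay furthest apart of these genes. HOXA13, a homeobox factor of distal limb and urogenital development, had 70.8 and 70.4 CPM in m6A-Tracer libraries, against 148 and 146 CPM in untreated libraries (log2 fold change -1.06 ± 0.08). C11orf96, for which no role is given here, changed by -1.07. STK19 has 6 identifiers in the table, which may split its reads, so its call is uncertain.

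Most cytosolic ribosomal protein genes fell. Of 79 tested, 49 fell and none rose, all 79 had a log2 fold change below 0, and the median was -0.36. In the large subunit 33 of 46 fell and in the small subunit 16 of 33. RPS3A had 1163 and 1195 CPM in m6A-Tracer libraries, against 1666 and 1690.4 CPM in untreated libraries (log2 fold change -0.51 ± 0.09, edgeR adjusted p = 0.00944). RPL10 had 1425 and 1426 CPM in m6A-Tracer libraries, against 1962 and 1928 CPM in untreated libraries (log2 fold change -0.45 ± 0.07, edgeR adjusted p = 0.00565). RPL4, among the smaller changes, had 2202 and 2208 CPM in m6A-Tracer libraries, against 2756 and 2711 CPM in untreated libraries (log2 fold change -0.31 ± 0.05). Summed ribosomal protein levels were 60786 and 60174 CPM in m6A-Tracer, 53926 and 52894 CPM in DamV133A, 68732 and 85769 CPM in DamV133A-LMNB1 and 78824 and 77233 CPM in untreated libraries. The 2 DamV133A-LMNB1 libraries lay on either side of the untreated ones. With any 1 of the m6A-Tracer or untreated libraries left out none of the 79 passed the threshold, and with either DamV133A library left out 11 did. DESeq2 called 72 of the genes lower, and a fit of the m6A-Tracer and untreated groups alone, like any fit without 1 or both DamV133A-LMNB1 libraries, called 78. Many of these genes have processed pseudogenes that can share reads. EEF1A1, the elongation factor that brings tRNA to the ribosome, had 7633 and 7637 CPM in m6A-Tracer libraries, against 10568 and 10729.6 CPM in untreated libraries (log2 fold change -0.48 ± 0.06, edgeR adjusted p = 0.00272).

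Mitochondrially encoded subunits of the respiratory chain rose. Of 13 tested 9 were higher and none lower, every one had a log2 fold change above 0, and the median was 0.33. MT-ND1, a subunit of complex I, had 807 and 808 CPM in m6A-Tracer libraries, against 532 and 517 CPM in untreated libraries (log2 fold change 0.62 ± 0.04, edgeR adjusted p = 0.000276). MT-CYB, of complex III, had 911 and 901 CPM in m6A-Tracer libraries, against 617 and 579.6 CPM in untreated libraries (log2 fold change 0.60 ± 0.05, edgeR adjusted p = 0.000636). MT-CO1, of complex IV, had 3683 and 3666 CPM in m6A-Tracer libraries, against 2962 and 2916 CPM in untreated libraries (log2 fold change 0.32 ± 0.03, edgeR adjusted p = 0.00163). MT-ATP6, of the ATP synthase, had 986 and 929 CPM in m6A-Tracer libraries, against 703 and 629 CPM in untreated libraries (log2 fold change 0.52 ± 0.07, edgeR adjusted p = 0.00390). In all 4 genes the replicates lay close and the groups apart. Of 73 nuclear genes of the same complexes 5 fell, near the 4.67% of all genes that were lower, none rose, and the median was -0.20. The log2 fold change was below 0 in 71 of the 73 and above 0 in 2. ATP5F1C, the gamma subunit of the ATP synthase, had 168 and 172 CPM in m6A-Tracer libraries, against 205 and 203 CPM in untreated libraries (log2 fold change -0.27 ± 0.07, edgeR adjusted p = 0.0375). None of the nuclear genes passed with any 1 library of the m6A-Tracer, DamV133A or untreated groups left out, under library totals alone or under the replicate block. In the 2 groups alone 62 of them were lower, by DESeq2 16, and without 1 DamV133A-LMNB1 library 63 or 59. Without 1 m6A-Tracer or untreated library, 5 to 7 of the mitochondrial genes rose, and without the DamV133A-LMNB1 libraries all 13.

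The mitochondrial genes also differed between m6A-Tracer and the other transfected groups. Against DamV133A, 22 genes were called, 0.124% of those tested (0.0733% higher and 0.0507% lower), and 7 of the 13 mitochondrial genes were higher. None of the 13 passed under the replicate block or without any 1 library of the m6A-Tracer, DamV133A or untreated groups, and all 13 did in the 2 groups alone and without a DamV133A-LMNB1 library. Against DamV133A-LMNB1, 41 were called, 0.231% of those tested (0.175% higher and 0.0564% lower), and 9 of the 13 were higher. None of these passed without either m6A-Tracer library or in a fit of the 2 groups alone, where 2 genes and 1 gene of the whole table were called; 2 passed without a DamV133A library, 5 without an untreated one and 6 under the replicate block. MT-CO1 had 3683 and 3666 CPM in m6A-Tracer, 2697 and 2706 CPM in DamV133A, 2524 and 2467 CPM in DamV133A-LMNB1 and 2962 and 2916 CPM in untreated libraries. The m6A-Tracer libraries were highest, by 0.44 over DamV133A (edgeR adjusted p = 0.0112) and 0.56 over DamV133A-LMNB1 (edgeR adjusted p = 0.00127) on the log2 scale. Mitochondrially encoded genes took 1.26% and 1.25% of counts in m6A-Tracer, 0.936% and 0.931% in DamV133A, 0.836% and 0.803% in DamV133A-LMNB1 and 0.940% and 0.895% in untreated libraries.

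**Figure D4:**
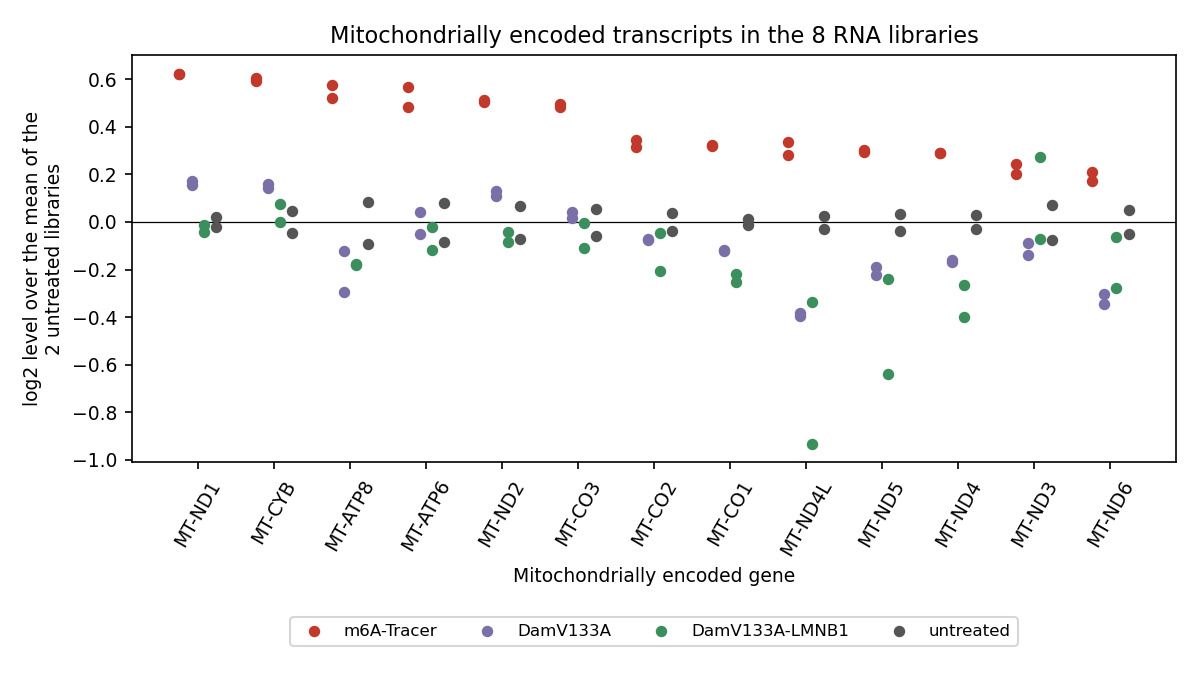
For each of 13 mitochondrially encoded genes, the log2 level in each library over the mean of the 2 untreated libraries, with the groups in the order m6A-Tracer, DamV133A, DamV133A-LMNB1 and untreated. The m6A-Tracer points lie above all others in every gene but MT-ND3, where 1 DamV133A-LMNB1 library is higher.

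Outside the mitochondrial genes few differences between m6A-Tracer and DamV133A passed: FKBP1A changed by -1.56 on the log2 scale (edgeR adjusted p = 1.84e-05), and H4C14 by -0.55 (edgeR adjusted p = 0.0490), with 56.1 and 53.4 CPM in m6A-Tracer against 78.6 and 81.3 CPM in DamV133A libraries. None of the p53, hypoxia, ribosomal or interferon genes tested was called between m6A-Tracer and DamV133A. At an unadjusted p under 0.05 there were 1588 genes, and with both DamV133A-LMNB1 libraries left out 2115 were called, so the few calls are not evidence that the groups are alike. With any 1 of the m6A-Tracer, DamV133A or untreated libraries left out a single gene was called. Against DamV133A-LMNB1 the largest change among called genes was that of LMNB1 (-3.18, edgeR adjusted p = 1.15e-05), and FKBP1A changed by -1.07 (edgeR adjusted p = 0.000167). These comparisons and the one with untreated cells share the m6A-Tracer libraries.

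Side by side, the transfected groups gave the following levels. SLC2A3 had 13.2 and 12.2 CPM in m6A-Tracer, 11.0 and 9.86 CPM in DamV133A, 12.9 and 11.6 CPM in DamV133A-LMNB1 and 32.3 and 33.5 CPM in untreated libraries. AEN had 188 and 185 CPM in m6A-Tracer, 214 and 215 CPM in DamV133A, 204 and 211 CPM in DamV133A-LMNB1 and 79.4 and 86.9 CPM in untreated libraries. In both genes the untreated libraries stood apart from all 6 others.

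Mitotic genes rose in part. Of 40 mitotic genes 13 rose and none fell, with a median of 0.23. AURKA, a spindle pole kinase, had 117 and 114 CPM in m6A-Tracer libraries, against 92.7 and 86.0 CPM in untreated libraries (log2 fold change 0.37 ± 0.06, edgeR adjusted p = 0.00637). CDC25C, a phosphatase that activates the mitotic cyclin-dependent kinase, had 38.8 and 37.2 CPM in m6A-Tracer libraries, against 27.7 and 29.5 CPM in untreated libraries (log2 fold change 0.41 ± 0.07, edgeR adjusted p = 0.0105). PLK1, a mitotic polo-like kinase, changed by 0.25. With 1 m6A-Tracer or untreated library left out, at most 1 of the 40 passed; with a DamV133A-LMNB1 library left out 33 rose, and under library totals 20. Of 41 replication and S-phase genes 4 rose, 1 fell, and the median was 0.06. These counts are near the shares over all genes, 7.62% higher and 4.67% lower. E2F8, a repressor of the E2F family, had 30.1 and 31.3 CPM in m6A-Tracer libraries, against 21.2 and 21.7 CPM in untreated libraries (log2 fold change 0.52 ± 0.08), and RRM2, a ribonucleotide reductase subunit, was the one that fell (-0.20). No S-phase gene passed without 1 m6A-Tracer or untreated library, while 15 rose and 8 fell without both DamV133A-LMNB1 libraries.

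Replication-dependent histone transcripts end in a stem-loop in place of a poly(A) tail and so are sparse in polyadenylated RNA. The library kit is not given, and its part in their levels was not tested. Summed over the list, levels were 177 and 174 CPM in m6A-Tracer and 118 and 122 CPM in untreated libraries. Of 38 tested genes 9 rose and 2 fell, with a median of 0.43. H4C8 had 3.79 and 3.86 CPM in m6A-Tracer libraries, against 0.733 and 0.883 CPM in untreated libraries (log2 fold change 2.24 ± 0.15, edgeR adjusted p = 0.000279). H3C6 had 7.49 and 7.34 CPM in m6A-Tracer libraries, against 1.97 and 2.08 CPM in untreated libraries (log2 fold change 1.87 ± 0.14, edgeR adjusted p = 0.000474). H2AC6 had 8.55 and 8.54 CPM in m6A-Tracer libraries, against 3.94 and 4.09 CPM in untreated libraries (log2 fold change 1.09 ± 0.11). Each was about the same in its 2 replicates. H1-2, a linker histone, was lower, with 12.1 and 12.4 CPM in m6A-Tracer libraries, against 16.6 and 17.0 CPM in untreated libraries (log2 fold change -0.46 ± 0.11), as was H2BC21 (-0.60). Histone copies are similar in sequence, so single genes are uncertain. With 1 m6A-Tracer or untreated library left out 5 to 7 histone genes rose and none fell. CCAAT, a promoter box bound by NF-Y, occurred on either strand in 28 of 35 histone windows, against 33.0% of all promoters. Mitotic genes had the same 28 of 35. Over the lists the share ran from 12.5% in cytokine and NF-kB genes to 84% in endoplasmic reticulum chaperones, of which none rose.

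Chaperones of the endoplasmic reticulum fell in part. Of 26 tested genes 10 fell and none rose, with a median of -0.17. HSPA5, the chaperone BiP, had 717 and 703 CPM in m6A-Tracer libraries, against 998 and 1001 CPM in untreated libraries (log2 fold change -0.49 ± 0.04, edgeR adjusted p = 0.000724). HERPUD1, of protein degradation at the membrane, had 63.6 and 64.3 CPM in m6A-Tracer libraries, against 88.8 and 89.7 CPM in untreated libraries (log2 fold change -0.48 ± 0.06, edgeR adjusted p = 0.00392). DNAJB9, a BiP cofactor, had 11.2 and 11.6 CPM in m6A-Tracer libraries, against 15.8 and 16.3 CPM in untreated libraries (log2 fold change -0.50 ± 0.09). Both m6A-Tracer libraries lay below both untreated ones in the 3 genes. With 1 m6A-Tracer or untreated library left out, 1 of the 26 passed, and with both DamV133A-LMNB1 libraries left out 17 fell and 2 rose.

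The integrated stress response moved both ways. Of 42 genes linked to ATF4, 5 rose and 8 fell, with a median of -0.06, which changed sign under library totals. GDF15, a stress-induced cytokine, had 7.51 and 6.87 CPM in m6A-Tracer libraries, against 1.53 and 1.59 CPM in untreated libraries (log2 fold change 2.20 ± 0.16, edgeR adjusted p = 0.000398). SLC3A2, the heavy chain of amino acid transporters, had 360.4 and 343 CPM in m6A-Tracer libraries, against 266 and 263 CPM in untreated libraries (log2 fold change 0.41 ± 0.09). ASNS, asparagine synthetase, had 244 and 245 CPM in m6A-Tracer libraries, against 298 and 304 CPM in untreated libraries (log2 fold change -0.30 ± 0.05). STC2, a secreted stanniocalcin, had 191 and 189 CPM in m6A-Tracer libraries, against 245 and 247 CPM in untreated libraries (log2 fold change -0.37 ± 0.05). GDF15 and SLC3A2 were higher in both m6A-Tracer libraries, ASNS and STC2 in both untreated libraries. With 1 library of either group left out 1 gene was higher and 1 lower, and without both DamV133A-LMNB1 libraries 8 were higher and 20 lower.

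Immediate early genes also divided. Of 44 tested, 4 rose and 9 fell, with a median of -0.06 that likewise changed sign under library totals. The 4 that rose are near the 7.62% of all genes that were higher, and 4.67% of all genes were lower. FOS had 11.6 and 12.5 CPM in m6A-Tracer libraries, against 19.5 and 19.0 CPM in untreated libraries (log2 fold change -0.68 ± 0.08, edgeR adjusted p = 0.00276), and JUNB had 29.1 and 28.9 CPM in m6A-Tracer libraries, against 42.2 and 43.1 CPM in untreated libraries (log2 fold change -0.56 ± 0.07, edgeR adjusted p = 0.00390). FOSL1, another AP-1 subunit, was higher, with 5.33 and 4.82 CPM in m6A-Tracer libraries, against 2.22 and 2.21 CPM in untreated libraries (log2 fold change 1.20 ± 0.13, edgeR adjusted p = 0.00193). MYC, a growth regulator, had 172 and 165 CPM in m6A-Tracer libraries, against 218 and 213 CPM in untreated libraries (log2 fold change -0.36 ± 0.05), and GADD45B, a stress gene, had 10.7 and 11.4 CPM in m6A-Tracer libraries, against 19.5 and 17.3 CPM in untreated libraries (log2 fold change -0.73 ± 0.15). Without 1 m6A-Tracer or untreated library 2 were higher and 1 or 2 lower, and without a DamV133A-LMNB1 library 5 were higher and 13 to 15 lower.

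Some heat shock and redox genes were called, in both directions. Over all genes tested, 7.62% were higher and 4.67% lower. Of 31 heat shock chaperones, mostly cytosolic, 4 rose and 1 fell (median 0.05). BAG3, a cofactor of HSP70, had 69.9 and 66.0 CPM in m6A-Tracer libraries, against 54.3 and 52.9 CPM in untreated libraries (log2 fold change 0.34 ± 0.06). HSPD1, the mitochondrial HSP60, had 1265 and 1275 CPM in m6A-Tracer libraries, against 1499 and 1510.4 CPM in untreated libraries (log2 fold change -0.24 ± 0.04). None of the 31 passed without 1 m6A-Tracer or untreated library, and 11 rose and 10 fell without both DamV133A-LMNB1 libraries. Of 28 NRF2 targets and metal-response genes 4 rose and 2 fell (median -0.13). SLC30A1, a zinc exporter, had 44.3 and 41.1 CPM in m6A-Tracer libraries, against 28.4 and 28.0 CPM in untreated libraries (log2 fold change 0.60 ± 0.07), and HMOX1, heme oxygenase, had 43.0 and 44.3 CPM in m6A-Tracer libraries, against 33.8 and 34.8 CPM in untreated libraries (log2 fold change 0.35 ± 0.09). A single NRF2 gene rose without 1 m6A-Tracer or untreated library, against 5 higher and 11 lower without both DamV133A-LMNB1 libraries.

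Of 43 interferon-stimulated genes tested none was higher and 2 were lower, with a median of 0.06. The 2 lower genes are near the 4.67% of all genes that were lower. Of all genes 7.62% were higher, beside which the small counts of this paragraph stand. At an unadjusted p under 0.05 in edgeR, 3 of them were higher and 6 lower, and DESeq2 and limma-voom each called 0 higher and 2 lower. In the 2 groups alone, and without 1 or both DamV133A-LMNB1 libraries, 2 were higher and 4 lower. Library totals called 1 higher and 2 lower, and without any 1 m6A-Tracer or untreated library none passed in either direction. IFI6 had 5.06 and 5.65 CPM in m6A-Tracer libraries, against 8.56 and 8.70 CPM in untreated libraries (log2 fold change -0.69 ± 0.17, edgeR adjusted p = 0.0360), and LGALS3BP, a secreted galectin ligand, had 12.1 and 11.9 CPM in m6A-Tracer libraries, against 16.2 and 15.8 CPM in untreated libraries (log2 fold change -0.41 ± 0.08, edgeR adjusted p = 0.0172). Of 16 nucleic acid sensing genes CGAS and TREX1 rose, both under 2 CPM. CGAS, the DNA sensor, had 0.645 and 0.753 CPM in m6A-Tracer libraries, against 0.206 and 0.172 CPM in untreated libraries (log2 fold change 1.87 ± 0.39). TREX1, a DNA exonuclease, had 0.992 and 1.18 CPM in m6A-Tracer libraries, against 0.0229 and 0.172 CPM in untreated libraries, with few counts in untreated cells. Both calls were lost without either m6A-Tracer library, and 1 of the 2 without a DamV133A or an untreated library or by DESeq2. Of 20 cytokine and NF-kB genes LIF and RELA rose and none fell. RELA, an NF-kB subunit, had 111 and 106 CPM in m6A-Tracer libraries, against 95.6 and 91.3 CPM in untreated libraries (log2 fold change 0.21 ± 0.06). A single cytokine gene was called under DESeq2 size factors, by the DESeq2 test, under the replicate block and without any 1 library of the m6A-Tracer, DamV133A or untreated groups, whereas 5 were higher and 1 lower without a DamV133A-LMNB1 library. Of 16 genes of MHC class I presentation 2 fell, PSME1 (-0.47), a proteasome activator, and PDIA3 (-0.20), a disulfide isomerase; neither passed without 1 m6A-Tracer or untreated library, and 7 were lower without a DamV133A-LMNB1 library.

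RNA processing genes rose in part. Of 33 splicing factors and CLK kinases 10 rose and none fell (median 0.15). CCNL1, cyclin L1, had 83.6 and 86.9 CPM in m6A-Tracer libraries, against 54.4 and 56.6 CPM in untreated libraries (log2 fold change 0.62 ± 0.06, edgeR adjusted p = 0.000751). SRSF6, an SR splicing factor, had 287 and 290.2 CPM in m6A-Tracer libraries, against 201 and 207 CPM in untreated libraries (log2 fold change 0.50 ± 0.05, edgeR adjusted p = 0.000980). With 1 m6A-Tracer or untreated library left out, 2 of the 33 passed, and with both DamV133A-LMNB1 libraries left out 23 rose and 4 fell. Of 24 genes that write, erase or read adenine methylation in RNA, 8 rose and 1 fell (median 0.15). ALKBH1, a demethylase, had 25.6 and 25.7 CPM in m6A-Tracer libraries, against 19.9 and 18.4 CPM in untreated libraries (log2 fold change 0.42 ± 0.07). The readers YTHDF1, YTHDF2 and YTHDF3 changed by 0.25, 0.29 and 0.35 on the log2 scale. None of the 24 passed in the higher direction without 1 m6A-Tracer or untreated library, 2 did without a DamV133A library, and 14 did without a DamV133A-LMNB1 library, with 3 lower.

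Other compartments showed scattered calls, fewer without 1 m6A-Tracer or untreated library and more without the DamV133A-LMNB1 libraries. The shares over all genes were 7.62% higher and 4.67% lower. Of 36 genes of cholesterol and fatty acid synthesis 1 rose and 2 fell. INSIG1, which retains SREBP in the endoplasmic reticulum, was lower, with 291 and 294 CPM in m6A-Tracer libraries, against 367 and 371 CPM in untreated libraries (log2 fold change -0.34 ± 0.05). Of 45 lysosome and autophagy genes 4 rose and 2 fell, near those shares. FLCN, folliculin, had 58.7 and 55.7 CPM in m6A-Tracer libraries, against 36.4 and 40.9 CPM in untreated libraries (log2 fold change 0.57 ± 0.08), and CTSB, cathepsin B, had 65.9 and 66.4 CPM in m6A-Tracer libraries, against 88.8 and 86.6 CPM in untreated libraries (log2 fold change -0.41 ± 0.06). Of 16 genes of the nuclear lamina, SUN2 (0.20) and ZMPSTE24 (0.21) rose and LMNB1 fell. Of 19 neuronal and cytoskeletal genes 2 rose and 4 fell. NEFL, the light neurofilament, had 87.2 and 90.0 CPM in m6A-Tracer libraries, against 139.8 and 139 CPM in untreated libraries (log2 fold change -0.65 ± 0.05, edgeR adjusted p = 0.000606), while SNAP25, of vesicle fusion, had 0.992 and 1.41 CPM in m6A-Tracer libraries, against 0.114 and 0.196 CPM in untreated libraries.

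Calls were also counted by level in CPM, a scale not corrected for gene length, so that a class mixes abundance with transcript length. Among genes averaging under 1 CPM over the 8 libraries, 85 of 3373 were higher and 8 lower, with a median log2 fold change of 2.24 among the higher ones. From 1 to 10 CPM, 301 of 3806 were higher and 105 lower. From 10 to 100 CPM, 805 of 8110 were higher and 411 lower. At 100 CPM or more, 161 of 2451 were higher and 305 lower. Lower genes outnumbered higher ones only in the class of 100 CPM or more; how the counts would stand per length was not tested.

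**Figure D5:**
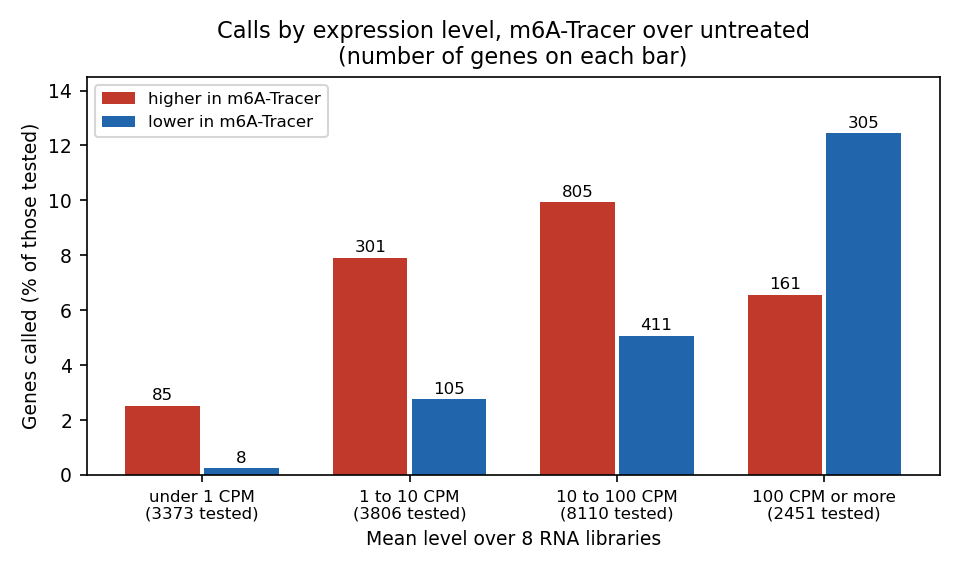
Percent of tested genes called higher (red, left bar) and lower (blue, right bar) in m6A-Tracer over untreated cells, by mean level over 8 RNA libraries, with gene numbers on the bars. Higher calls outnumber lower ones in the 3 classes under 100 CPM and are outnumbered at 100 CPM or more, 161 against 305.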

How the data were processed

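RNA of HEK293T cells was measured in 8 libraries in 4 groups of 2, mapped to groups by their transfection labels. The table the authors deposited gives an estimated count for each gene and library, with fractional values and Ensembl identifiers per the file headers. The submitters' processing notes name Trimmomatic 0.39, Salmon, DESeq2 and limma, without saying which made the table; the library kit and strand are not given in the sources used here. Counts were rounded, and 39037 genes were read, of which 34522 identifiers (88.4%) matched a current symbol. Where several identifiers share a symbol, the lists used 1 of them. Genes passing filterByExpr (17740) were tested by quasi-likelihood (edgeR 4.0.16 under R 4.3.3, with TMM, glmQLFit, glmQLFTest, 1 fit over 8 libraries by group, Benjamini-Hochberg adjusted p under 0.05), after testing on simulated data. Alternatives were DESeq2 1.42.0, limma 3.58.1, other scalings and filters, a replicate block, fewer groups and left-out libraries. No gene lengths were used, so CPM levels of different genes, and the level classes, also reflect transcript length.

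The genes named were the 12 with the smallest p in each direction, the 10 with the largest change in each direction at 5 CPM or more, up to 4 called members with the largest change in each of 25 gene lists, and construct-linked and marker genes. Further list members were named after their values were seen, as examples of size or role. Genes without a symbol and pseudogenes were counted, not named. Members and lists were chosen with earlier results of these data known. Promoter windows came from RefSeq. The DamID tables were not used.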

Additional observations from a re-analysis of the deposited data

How the results depend on the processing

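No named gene changed direction: over 131 called named genes and 18 settings, 2357 values kept their direction, and 55 of the genes passed the threshold in every setting. The named genes were called in these same libraries, where both m6A-Tracer libraries lay beyond both untreated ones. A reversal was thus hardly possible for them or for any of the 2181 calls, so its absence adds no support. Counts of calls depended on the settings. The DESeq2 test called 1284 genes higher and 884 lower than in untreated cells, limma-voom 1257 and 780, and no call of 2181 turned round in any setting. Genes lower numbered 501 under library totals alone and 1548 without the filter on low counts. A fit of only the 2 groups compared called 3346 higher and 3531 lower, and a fit without the DamV133A-LMNB1 libraries, chosen after the data were seen, 3370 and 3564. Leaving out 1 library at a time gave 249 to 3458 higher and 56 to 3653 lower. A replicate block gave 961 higher and 461 lower, but the replicate numbers share nothing known: deviations of same-numbered m6A-Tracer and untreated libraries correlated at -0.004. Against DamV133A, called genes numbered 22, with 330 without the filter, 57 by DESeq2, 1 under the replicate block, 1993 in the 2 groups alone and 2115 without the DamV133A-LMNB1 libraries; leaving out 1 library gave 1 to 2074. Against DamV133A-LMNB1, they numbered 41, with 88 under library totals, 4175 without the filter, 2551 by DESeq2, 9 under the replicate block and 1 in the 2 groups alone; leaving out 1 library gave 2 to 8378. Fewer samples enter the fits that leave out libraries, and the replicates of DamV133A-LMNB1 differ most (chi-square per gene 42.6, against 3.10 in m6A-Tracer and 4.31 in untreated cells); other causes were not tested. With 2 libraries in each group, single genes under 1 CPM rest on few counts.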

Other observations

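Gene families were also counted, after their values were seen. Of 489 tested genes named ZNF, mostly zinc-finger transcription factors, 117 were higher and 3 lower in m6A-Tracer cells, with a median log2 fold change of 0.25, against 0.01 over all genes. ZNF79 had 17.5 and 18.6 CPM in m6A-Tracer libraries, against 6.39 and 5.08 CPM in untreated libraries (log2 fold change 1.65 ± 0.11). ZNF654 had 41.0 and 45.3 CPM in m6A-Tracer libraries, against 17.4 and 17.9 CPM in untreated libraries (log2 fold change 1.29 ± 0.09). The groups did not overlap in either. ZNF395 was one of the 3 lower, with 59.0 and 57.2 CPM in m6A-Tracer libraries, against 87.4 and 84.7 CPM in untreated libraries (log2 fold change -0.57 ± 0.06). With 1 m6A-Tracer or untreated library left out, 23 to 31 of the ZNF genes rose, and without both DamV133A-LMNB1 libraries 216 rose and 27 fell. Of 18 ZSCAN genes, zinc-finger factors with a SCAN domain, 5 were higher and none lower, with at most 1 higher without 1 m6A-Tracer or untreated library and 11 without both DamV133A-LMNB1 libraries. Transcribed copies of SMG1, a kinase of nonsense-mediated decay, rose in 5 of 7 cases; these copies are near-identical, so reads may be split between them.

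Of 38 HOX genes 6 were lower, against 4.67% of all genes, and none higher. HOXA11 had 55.2 and 56.2 CPM in m6A-Tracer libraries, against 77.1 and 72.0 CPM in untreated libraries (log2 fold change -0.42 ± 0.06), and HOXB9 had 225 and 218 CPM in m6A-Tracer libraries, against 268 and 276 CPM in untreated libraries (log2 fold change -0.29 ± 0.05). With 1 m6A-Tracer or untreated library left out 1 or 2 HOX genes were lower, with a DamV133A library left out 3, and with a DamV133A-LMNB1 library left out 12, with 1 higher. Of 55 genes named EIF, mostly translation initiation factors, 10 were lower and 2 higher, against 4.67% and 7.62% of all genes. EIF4B had 619 and 633 CPM in m6A-Tracer libraries, against 832 and 852 CPM in untreated libraries (log2 fold change -0.43 ± 0.04), and EIF5, one of the 2 higher, had 407 and 413 CPM in m6A-Tracer libraries, against 311 and 318 CPM in untreated libraries (log2 fold change 0.38 ± 0.04). Their count fell to 1 lower and 1 higher without 1 m6A-Tracer or untreated library and to 5 lower without a DamV133A library, and was 27 lower and 10 higher without both DamV133A-LMNB1 libraries. Of 43 collagen genes 4 were lower, COL2A1 among them with 79.0 and 77.9 CPM in m6A-Tracer libraries, against 102 and 101 CPM in untreated libraries (log2 fold change -0.38 ± 0.05). None of the collagens passed without 1 m6A-Tracer or untreated library, 2 did without a DamV133A library, and 11 did without both DamV133A-LMNB1 libraries. Of 41 FOX genes 5 were lower and 1 higher, and no lower one passed without 1 m6A-Tracer or untreated library. FOXJ1, a factor of motile cilia singled out after its value was seen, had 2.13 and 2.38 CPM in m6A-Tracer and 0.0687 and 0.0245 CPM in untreated libraries. Other families, taken by name, held few calls. Of 83 genes named MRPL or MRPS, mostly mitochondrial ribosomal proteins, 1 was higher and none lower, and that 1 is a pseudogene. Of 37 genes named PSM, mostly proteasome subunits, 3 were higher and none lower. These were PSMD1, PSMD11 and PSMC3IP, the last of which is no proteasome subunit. EdgeR called none of 23 nucleoporin genes, where DESeq2 called 2 higher and 4 were higher at an unadjusted p under 0.05. Without both DamV133A-LMNB1 libraries 5 of the MRPL and MRPS genes were higher and 35 lower. In that fit 8 of the PSM genes were higher and 14 lower, and 7 of the nucleoporin genes higher and 2 lower.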
